A study of Mus musculus with 11 samples.

Results

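A set of 7 genes of cholesterol synthesis and its control by SREBP2 were followed in Syncrip mutant neural progenitors: Hmgcs1, Idi1, Fdft1, Sqle and Lss, which encode enzymes of the pathway, and Srebf2 and Insig1, which encode its regulator and a brake on that regulator. They are a list chosen by name, with earlier results of these data known. The list holds 7 of the 48440 genes in the RNA-seq count table and 7 of the 32285 genes in the scRNA-seq matrices. All 7 were measured in both. The RNA-seq compared 3 cultures of wild-type (WT) neural progenitor cells (NPCs) with 3 cultures of Syncrip conditional knockout (cKO) NPCs. The scRNA-seq compared the dorsal cortex of 1 WT and 1 cKO embryo from the same litter. All samples came from E14.5 embryos on a C57BL/6 background, and the NPCs were then grown in culture. The cKO carries Syncrip alleles with loxP sites around exons 2 to 4 together with Emx1-Cre, which recombines in the dorsal telencephalon, so that cells born in the ganglionic eminence (GE) lie outside its domain. The cultures were grown from dissected lateral ventricles with EGF and bFGF.

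Cholesterol is built from acetyl-CoA through mevalonate, isopentenyl units, farnesyl diphosphate and squalene, and squalene is closed into the ring system of lanosterol, the first sterol. When the sterol content of the endoplasmic reticulum falls, the escort protein SCAP carries SREBP2 to the Golgi, proteases release its active fragment, and the fragment switches on the enzymes of synthesis and of sterol uptake as well as Insig1, whose product holds SCAP back again. The developing brain comes to rely on cholesterol made in place, because lipoproteins of the blood do not cross the blood-brain barrier.

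Read totals of the 6 cultures lay between 16962903 and 22708400 counts, and the 2 scRNA-seq libraries held 8214 (WT) and 9560 (cKO) cells after filtering, with medians of 11705 and 11012.5 UMIs per cell and 22 barcodes in common. Syncrip itself was measured at 77.9, 79.8 and 79.9 CPM in the WT cultures and at 90.3, 88.7 and 81.5 CPM in the cKO cultures, so it was not lower in any cKO culture (log2 fold change 0.13 ± 0.07 SE, edgeR adjusted p = 0.18). In AP-like cells it was measured at 314 CPM in the WT and 323 CPM in the cKO embryo. Counts over the whole gene, and UMIs read at the 3′ end, do not separate the floxed exons. These values therefore do not check the genotype, and the labels were taken as given. The paper reports the knockout at both the RNA and the protein level. Its RNA-seq tracks of control and cKO neurospheres are described as showing deletion of the floxed exons. It does not say whether those tracks come from these 6 cultures. Genes on the Y chromosome had between 5903 and 9232 counts in WT cultures 1 and 2 and cKO culture 1, and at most 1 count in the other 3, so cultures with Y-linked counts were not balanced between genotypes. Xist was listed at 0 in all 6 cultures, and the labels give no sex. The sources used here do not say whether the 3 cultures of a genotype came from separate embryos, and p-values measure only the spread between these cultures.

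In cultured NPCs, 5 of the 7 genes were expressed at higher levels in the cKO: Insig1, Idi1, Lss, Fdft1 and Sqle rose 1.27-fold to 1.90-fold, and none fell. Hmgcs1 and Srebf2 were 1.22-fold and 1.09-fold higher without passing the test. A gene was called with edgeR's quasi-likelihood test at a Benjamini-Hochberg adjusted p below 0.05 over all 14432 genes tested. Of these, 19.7% were called higher and 19.8% lower. The same 5 genes had every cKO culture above every WT culture, as did 25.7% of genes tested, while 24.7% had every cKO culture below and none of the 7 did. The median log2 fold change was 0.52 over the 7 genes and 0.00 over all genes tested. Because the 7 were chosen with earlier results of these data known, these contrasts with all genes are descriptions only. On a scale per exon length (RPKM), WT levels ran from 191 for Hmgcs1 through 56.7 for Srebf2, 49.6 for Insig1, 29.6 for Sqle, 29.1 for Fdft1 and 13.5 for Idi1 to 3.60 for Lss, where Sqle and Fdft1 lay within the spread of their cultures. In bulk cultures a change in the share of cells that express a gene and a change in RNA per cell cannot be told apart.

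The first enzymes of the pathway behaved unequally. Hmgcs1 (chromosome 13, 119690462 to 119708086, mm10), which encodes the cytosolic synthase that forms HMG-CoA, was measured at 984, 908 and 744 CPM in WT and at 1338, 937 and 942 CPM in cKO cultures. The genotypes overlapped, because cKO culture 1 stood well above the rest and the other cKO cultures fell between the first and second WT cultures. Its log2 fold change was 0.29 ± 0.14 (SE) with an edgeR adjusted p of 0.11. The call depended on the fit: with the presence of Y-linked counts as a covariate the log2 fold change was 0.42 (edgeR adjusted p = 0.000425), and without cKO culture 1 it was 0.09. Idi1 (chromosome 13, 8885501 to 8892451), the isomerase that makes dimethylallyl diphosphate, was measured at 57.0, 44.3 and 41.0 CPM in WT and at 93.9, 76.0 and 76.1 CPM in cKO cultures. Every cKO culture lay above every WT culture, with a log2 fold change of 0.79 ± 0.12 (edgeR adjusted p = 0.000223).

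The enzymes that commit carbon to sterols rose by smaller or similar steps. Fdft1 (chromosome 14, 63145153 to 63177793), squalene synthase, was measured at 128, 127 and 114 CPM in WT and at 201, 158 and 171 CPM in cKO cultures. It did not overlap between genotypes and had a log2 fold change of 0.52 ± 0.09 (edgeR adjusted p = 0.00056). Sqle (chromosome 15, 59315077 to 59331192), the squalene epoxidase, which is a rate-limiting enzyme of the pathway, was measured at 178, 165 and 149 CPM in WT and at 232, 201 and 191 CPM in cKO cultures. This was the smallest of the called increases, at 0.35 ± 0.09 (edgeR adjusted p = 0.00912), and without cKO culture 1 it fell to 0.25 with an adjusted p of 0.0725. Lss (chromosome 10, 76531588 to 76557138), which closes the rings to give lanosterol, was measured at 39.1, 40.5 and 37.0 CPM in WT and at 76.6, 67.8 and 56.1 CPM in cKO cultures. Its log2 fold change was 0.78 ± 0.11 (edgeR adjusted p = 0.000103). The WT cultures of Lss lay close together while the cKO cultures were spread, and 44.1% of its span is shared with 4930483K19Rik, so its counts are less certain.

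The regulators split. Srebf2 (chromosome 15, 82147266 to 82205376), which encodes SREBP2, was measured at 371, 439 and 413 CPM in WT and at 457, 456 and 419 CPM in cKO cultures. The genotypes overlapped, and the log2 fold change was 0.12 ± 0.08 (edgeR adjusted p = 0.267, 95% interval -0.04 to 0.29). Insig1 (chromosome 5, 28071363 to 28078662), a transcriptional target of SREBP2 whose protein retains SCAP, was measured at 157, 156 and 147 CPM in WT and at 316, 280 and 279 CPM in cKO cultures. The gap between the genotypes was many times the spread within them, with a log2 fold change of 0.93 ± 0.08 (edgeR adjusted p = 1.12e-06), and the change was larger in size than that of 90.7% of the genes tested.

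**Figure D1:**
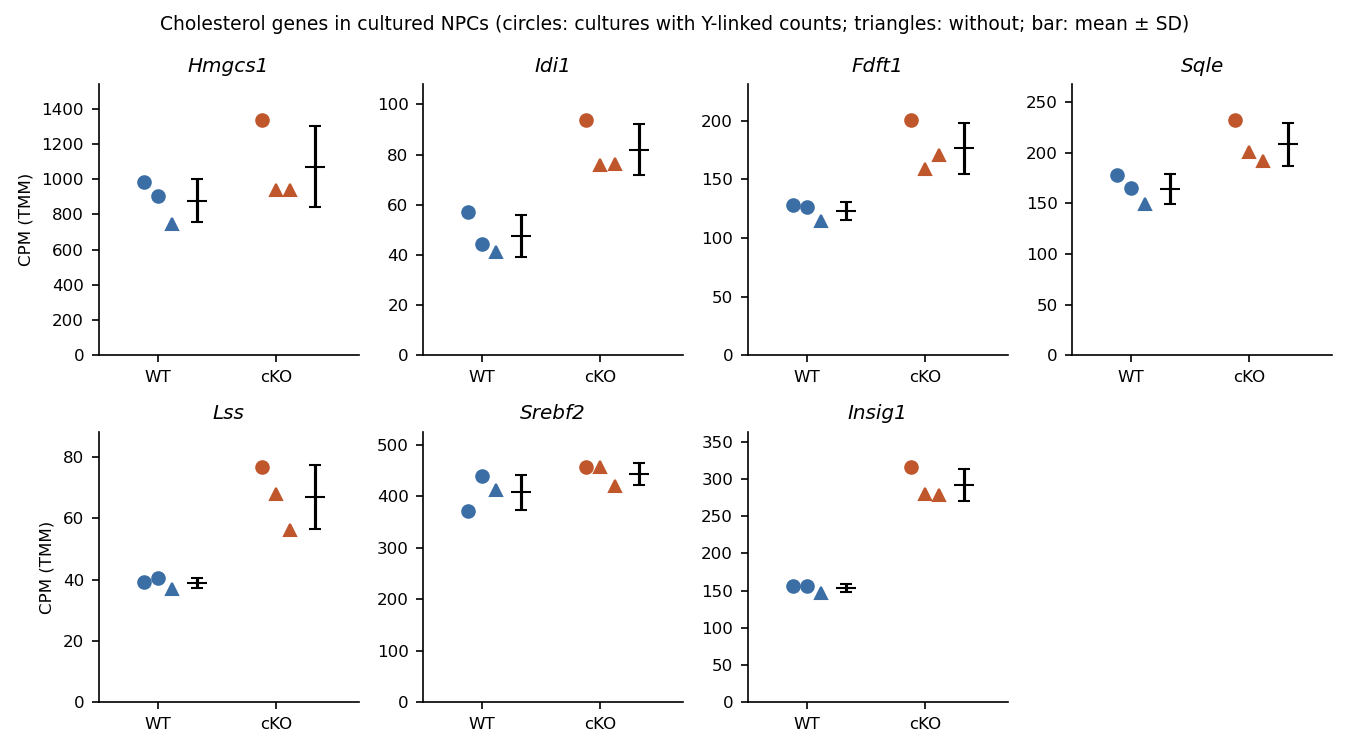
Expression of the 7 cholesterol genes in cultured NPCs. The y axis of each panel is CPM scaled with TMM factors and starts at 0, each point is 1 culture (circles: cultures with counts on Y-linked genes; triangles: cultures without), and the bars give the mean ± SD of 3 cultures. Insig1, Idi1, Lss, Fdft1 and Sqle show no overlap between genotypes, while Hmgcs1 and Srebf2 overlap.

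Within each genotype, 6 of the 7 genes, all but Srebf2, were higher in every culture with Y-linked counts than in every culture without them, an order that 14.6% of the genes tested showed. The genotype difference had the same sign in both sets of cultures for all 7 genes. Between the cultures with Y-linked counts the log2 ratio of cKO to WT was 0.50 for Hmgcs1 and 1.01 for Insig1, and between those without it was 0.34 and 0.93. With 1 culture on one side of each comparison these ratios carry no test.

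Promoter sequence was compared because most of these genes rose together. RefSeq promoter windows on GRCm38.p6, from 250 bases before to 50 bases after the start, were at hand for 5 of the 7 genes: Hmgcs1, Idi1, Insig1, Srebf2 and Lss. The stretch before the start is given 5′ to 3′ on the gene's strand for 4 of them, cut at the gene's start in the count table where that comes first, at chr13:119690101-119690350 (Hmgcs1), chr15:82147019-82147265 (Srebf2), chr5:28071162-28071362 (Insig1) and chr10:76531355-76531587 (Lss), all on the plus strand. Capitals mark matches on either strand to the sterol regulatory element letters TCACCCCAC, to the CCAAT box CCAAT that NF-Y binds, to the GC box GGGCGG that Sp1 binds, and to the E-box CACGTG. No marked matches overlap.
Hmgcs1: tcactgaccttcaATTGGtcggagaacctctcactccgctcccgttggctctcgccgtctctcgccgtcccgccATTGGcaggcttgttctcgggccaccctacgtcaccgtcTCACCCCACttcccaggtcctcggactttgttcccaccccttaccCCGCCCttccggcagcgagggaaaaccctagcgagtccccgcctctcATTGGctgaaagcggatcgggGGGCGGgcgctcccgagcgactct
Srebf2: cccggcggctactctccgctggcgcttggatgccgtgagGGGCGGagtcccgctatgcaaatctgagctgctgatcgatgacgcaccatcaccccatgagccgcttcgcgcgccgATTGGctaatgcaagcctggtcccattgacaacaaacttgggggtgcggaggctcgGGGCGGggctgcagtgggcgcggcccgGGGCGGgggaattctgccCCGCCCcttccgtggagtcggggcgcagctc
Insig1: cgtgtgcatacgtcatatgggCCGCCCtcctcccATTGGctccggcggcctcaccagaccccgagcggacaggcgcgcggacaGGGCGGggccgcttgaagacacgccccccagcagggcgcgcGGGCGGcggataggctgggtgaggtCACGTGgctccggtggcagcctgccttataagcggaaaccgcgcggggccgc
Lss: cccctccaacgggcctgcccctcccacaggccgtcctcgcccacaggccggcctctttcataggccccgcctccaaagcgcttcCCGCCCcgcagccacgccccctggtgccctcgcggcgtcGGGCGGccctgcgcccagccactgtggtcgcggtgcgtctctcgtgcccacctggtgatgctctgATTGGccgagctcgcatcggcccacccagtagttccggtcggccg
The 9 letters of the sterol regulatory element were found in the window of Hmgcs1 alone, 137 bases before the start, and in 0.551% of all 32851 windows. With 1 mismatch allowed, Srebf2 also held a match, tcaccccat at 162 bases before the start, as did 9.82% of all windows. All 5 windows held a CCAAT box and a GC box, which were found in 37.4% and 35.7% of all windows of any base composition. The E-box was found in Insig1, 101 bases before the start, and in 7.15% of all windows. A match is a string of letters and says nothing here of binding. Of the 5 genes with a window, Idi1, Insig1 and Lss were called higher in the cultures. Hmgcs1 and Srebf2 were not, and the call on Hmgcs1 depended on the fit. Any part of these letters in the changes was not tested.

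Around the 7 genes, most other enzymes of cholesterol synthesis were also higher in the cKO cultures. Of the 20 enzymes listed, 19 were tested, 14 were called higher and none lower, with a median log2 fold change of 0.51. Over all genes tested, 19.7% were called higher. These counts and the median include Hmgcs1, Idi1, Fdft1, Sqle and Lss of the 7 genes, all but Hmgcs1 among the called, so they are not separate from the results above. The 5 that did not pass were Acat2, Hmgcs1, Pmvk, Ebp and Sc5d. Hsd17b7, a sterol ketone reductase, went from 25.8 ± 2.98 to 53.1 ± 3.48 CPM (SD, n = 3 each), a log2 fold change of 1.04. Tm7sf2, a sterol reductase, had a log2 fold change of 0.79. Fdps, the farnesyl diphosphate synthase, had the largest value at 1.11 but rested on 0.856 to 3.14 CPM per culture. Of its span 89.7% is shared with other genes in the annotation, and it lost its call without cKO culture 1 (0.94, edgeR adjusted p = 0.0541). In the scRNA-seq Fdps reached 208 CPM in WT AP-like cells.

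Among the 10 genes of sterol uptake and transport, 4 were called higher and 2 lower, against 19.7% and 19.8% of all genes tested. Scarb1, a lipoprotein receptor, rose by a log2 fold change of 0.73, and Stard4, a soluble sterol carrier, by 0.52. Npc1, which exports cholesterol from the lysosome, had a log2 fold change of -0.50.

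Among the 9 genes of SREBP regulation, 2 were called higher (Insig1, Mbtps1) and 2 lower, Srebf1 among them. These counts were near the shares over all genes tested, 19.7% higher and 19.8% lower. Srebf1, which encodes the SREBP of fatty acid synthesis, was measured at 211, 237 and 259 CPM in WT and at 171, 173 and 165 CPM in the 3 cKO cultures. Its log2 fold change was -0.48 ± 0.08 (edgeR adjusted p = 0.000595). Scap and Insig2, which encode the escort and the second INSIG, had log2 fold changes of -0.08 (edgeR adjusted p = 0.406) and -0.24 (edgeR adjusted p = 0.0735) and were not called. Mbtps1, the first protease that cuts SREBP, rose by 0.29 on the log2 scale.

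Genes of sterol export moved the other way. Of 11 listed genes of efflux and LXR control, 9 were tested, none was called higher and 5 were called lower, with a median log2 fold change of -0.41. The shares over all genes tested, for this and the next 2 lists, were 19.7% higher and 19.8% lower. Abcg1, a sterol exporter and LXR target, was measured at 9.19, 10.1 and 9.28 CPM in WT and at 3.04, 2.33 and 2.17 CPM in cKO cultures. Its log2 fold change was -1.92. Apoe, the main lipid carrier of the brain, had a log2 fold change of -1.21 and Abca1, the exporter that lipidates it, of -0.89, while Cyp46a1, which turns cholesterol into 24-hydroxycholesterol, had -0.53. In fatty acid synthesis, a related SREBP1 program, 2 of 12 genes were called higher and 4 lower. The desaturases Fads1, Fads2 and Scd2 had log2 fold changes of -0.64, -0.56 and -0.43, and the elongase Elovl6 had 0.51. In the isoprenoid branches 3 of 9 genes were called higher, namely Pdss1 (0.40), Pggt1b (0.30) and Coq2 (0.28), of which Pggt1b and Coq2 lost the call when single cultures were left out.

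**Figure D2:**
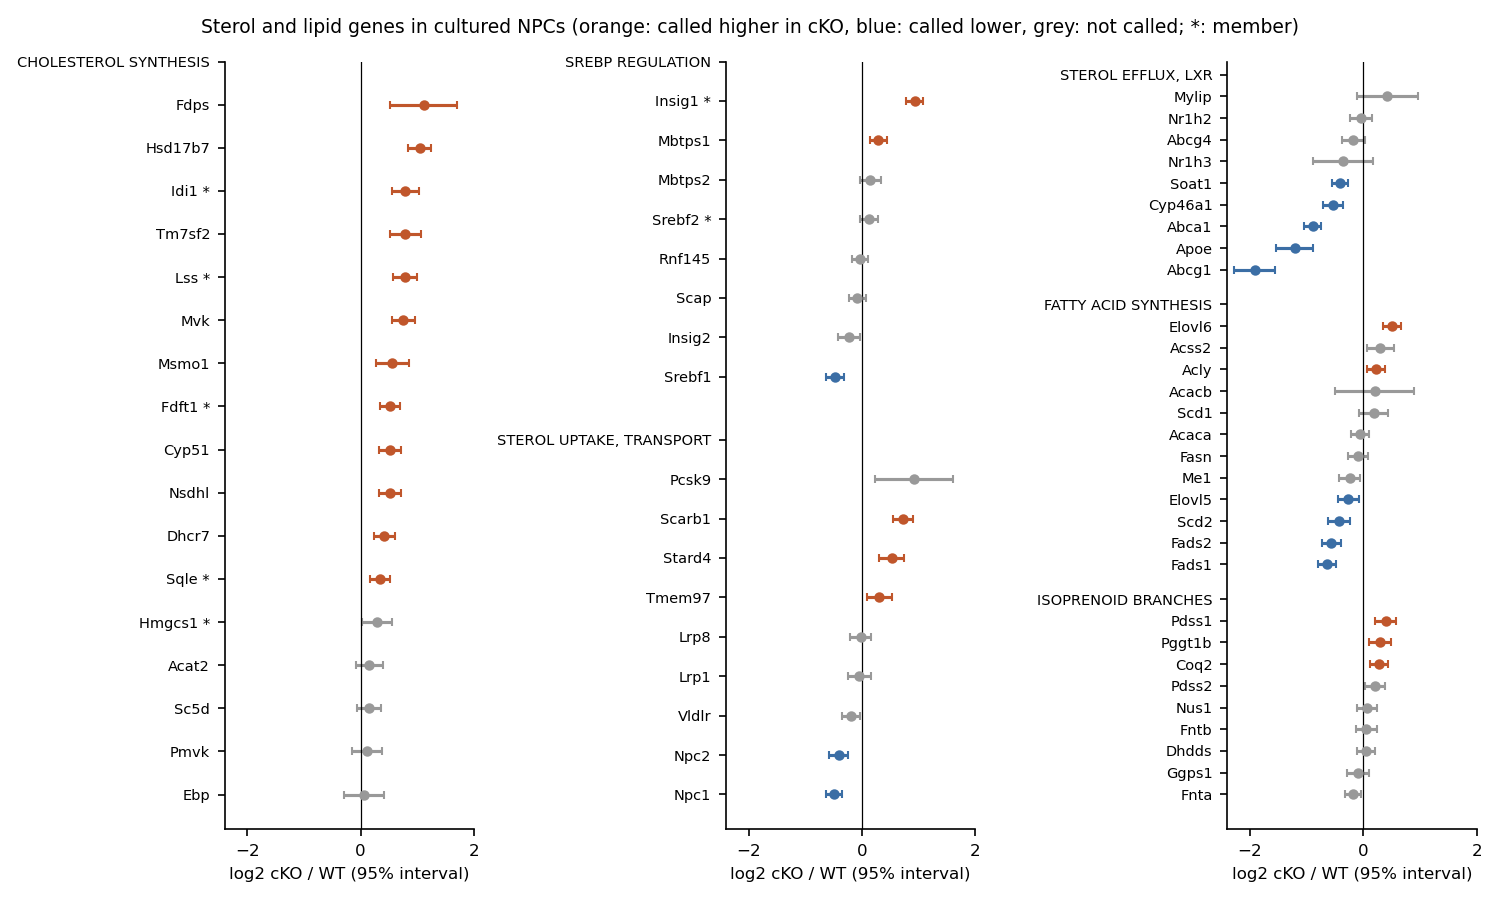
Log2 fold change of cKO over WT in cultured NPCs for tested genes of 6 sterol and lipid lists, not all of which are drawn, with its 95% interval on the x axis. Orange marks genes called higher, blue genes called lower and grey genes not called, and an asterisk marks the 7 genes followed here. Cholesterol synthesis shows orange genes and no blue one, and sterol efflux shows 5 blue genes and no orange one.

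Genes of the cell cycle and of other cell types also differed between the genotypes, in both directions, while the summed neuronal levels overlapped. For comparison, 19.7% of all genes tested were called higher and 19.8% lower. Of 8 cycling genes 7 were called higher, with summed levels of 209 to 259 CPM in WT and 333 to 453 CPM in cKO cultures. Astrocyte genes had 7 of 9 called lower and 1 higher, with summed levels of 8687 to 9326 CPM in WT and 5431 to 6195 CPM in cKO cultures. Oligodendrocyte lineage genes had 5 of 10 called lower and 2 higher (4675 to 5109 CPM against 3292 to 3904 CPM), neuronal genes 6 of 9 lower (2020 to 2365 CPM against 2150 to 2286 CPM) and endothelial and mural genes 2 of 4 lower (44.0 to 51.5 CPM against 24.1 to 34.8 CPM). The astrocyte marker Gfap and the neuronal marker Tubb3 were listed at 0 in every culture. The part of these shifts in the sterol genes was not tested.

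In the tissue, the cells were clustered without the sterol and lipid genes, and classes were named from marker genes as AP-like (apical progenitors), IP-like (intermediate progenitors), migrating neuron-like, immature neuron-like, GE-like and 6 rarer classes. AP-like cells numbered 1007 in the WT and 1364 in the cKO embryo, in 3 of the 26 clusters. Levels are UMIs summed over a class as CPM, with exact Poisson 95% intervals that cover counting error only. With 1 embryo of each genotype there is no replicate and no test between genotypes.

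AP-like cells had the highest level of 6 of the 7 genes in the mean of the embryos, and Fdft1 was highest in immature neuron-like cells. For Hmgcs1 and Sqle the ranges of the embryos in AP-like and Cajal-Retzius-like cells overlapped. Fdft1 overlapped between immature neuron-like cells, at 133 (WT) and 124 (cKO) CPM, and Cajal-Retzius-like cells, at 131 and 101 CPM. Lss in Cajal-Retzius-like cells rested on 11 and 18 UMIs, with intervals that include the AP-like levels. Summed over the 7 genes, AP-like cells had 695 CPM in the WT and 609 CPM in the cKO embryo, against 449 and 401 CPM in immature neuron-like, 393 and 380 CPM in migrating neuron-like, 318 and 333 CPM in IP-like and 300 and 294 CPM in GE-like cells. The order of these 5 classes was the same in both embryos. Cajal-Retzius-like cells, the early reelin-secreting neurons of the surface, lay between AP-like and immature neuron-like cells at 602 and 455 CPM, on only 64 and 112 cells. Summed over the 20 listed synthesis enzymes, Cajal-Retzius-like cells had 1722 (WT) and 1302 (cKO) CPM and AP-like cells 1519 and 1399 CPM. The ranges of the embryos in these classes overlapped for that sum. Red blood cell-like barcodes had the lowest summed level, 84.4 and 110 CPM from 19 and 27 UMIs, and the part of free RNA or doublets in it was not tested.

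Idi1 separated AP-like cells most sharply. AP-like cells held 112 CPM (107 to 118) in the WT embryo and 86.1 CPM (82.1 to 90.2) in the cKO embryo, against 19.8 CPM (18.4 to 21.3) and 16.5 CPM (15.2 to 17.9) in immature neuron-like cells. This was 5.66-fold in the WT embryo and 5.20-fold in the cKO embryo. Cajal-Retzius-like cells came next in the mean of the embryos, at 55.7 and 23.2 CPM. In the cKO embryo they were not above endothelial-like cells, which had 27.6 CPM on 30 UMIs. No other class passed that level in either embryo, and the endothelial-like, IP-like, GE-like and immature neuron-like levels ran into each other.

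Insig1 and Hmgcs1 followed with smaller contrasts. Insig1 was measured at 54.6 and 48.4 CPM in AP-like cells and at 18.2 and 17.1 CPM in immature neuron-like cells, 2.99-fold and 2.83-fold. Migrating neuron-like and IP-like cells were intermediate, at 32.9 and 31.8 CPM and at 33.6 and 26.5 CPM, and did not separate from each other. Hmgcs1 was the most abundant of the 7 in UMIs, at 254 CPM (245 to 262) and 223 CPM (217 to 230) in AP-like cells. Immature neuron-like cells had 137 and 114 CPM, and IP-like cells, which arise from AP-like cells, had the lowest level of the 5 large dorsal and ventral classes in the WT embryo at 74.4 CPM.

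Sqle, Srebf2 and Lss were more even. Sqle was measured at 80.1 and 64.5 CPM in AP-like cells and stepped down to 36.7 and 39.1 CPM in GE-like cells, with immature and migrating neuron-like cells not separated. Srebf2 was measured at 92.3 and 88.9 CPM in AP-like cells and between 53.2 and 76.2 CPM in the other large classes, of which IP-like and immature neuron-like cells did not differ beyond the embryos. Lss was the least abundant, at 16.9 and 15.7 CPM in AP-like and 8.09 to 13.7 CPM in the other large classes.

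Fdft1 ran the other way between progenitors and neurons. It was measured at 85.7 CPM (80.9 to 90.7) and 81.8 CPM (77.9 to 85.8) in AP-like cells and at 133 CPM (130 to 137) and 124 CPM (120 to 127) in immature neuron-like cells. The AP-like level was 0.643 of the neuronal level in the WT and 0.662 in the cKO embryo. Migrating neuron-like cells had 114 and 106 CPM. Thinned to 5000 UMIs per cell, 31.3% of WT AP-like cells (258 of 825, exact interval 28.1 to 34.6) and 47.6% of WT immature neuron-like cells (1050 of 2206, 45.5 to 49.7) held an Fdft1 UMI, against 55.6% and 78.4% before thinning. In red blood cell-like barcodes 7.27% held one before thinning, at a median of 3537 UMIs against 12765 in AP-like and 15491 in immature neuron-like cells. Thinned, 2 of 15 red blood cell-like barcodes held one.

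**Figure D3:**
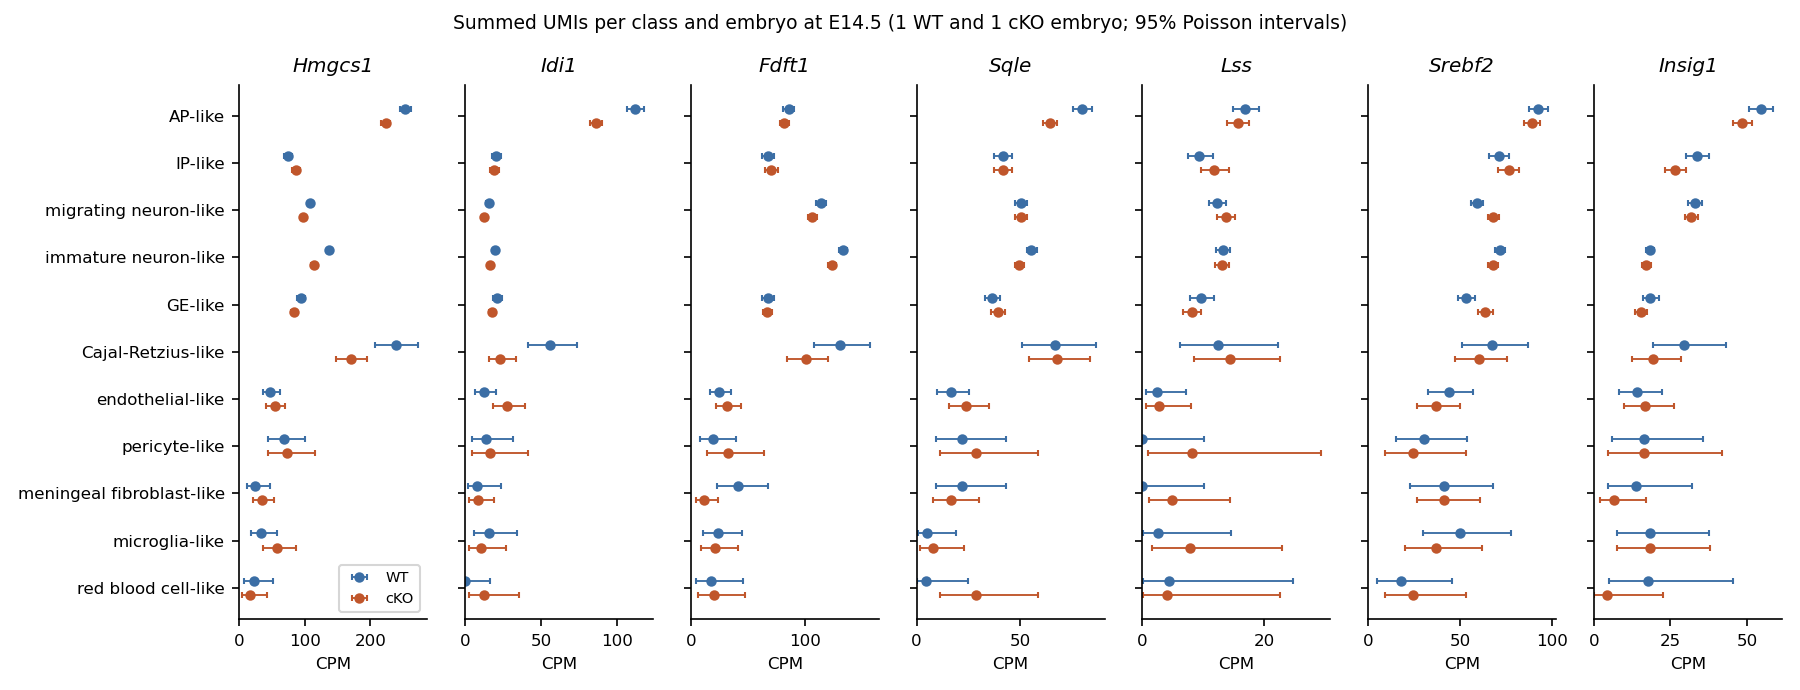
Level of each of the 7 genes in 11 marker-defined classes of the E14.5 dorsal cortex. The x axis is CPM of summed UMIs, blue is the WT embryo and orange the cKO embryo, and bars are exact Poisson 95% intervals. Idi1 and Insig1 stand out in AP-like cells, and Hmgcs1 is high in AP-like and Cajal-Retzius-like cells. Fdft1 is higher in immature neuron-like than in AP-like cells.

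Across the 22 sums of a named class in an embryo, which share libraries and differ in depth, the log2 levels of pairs of the 7 genes correlated with Pearson's r between 0.42 (Idi1 and Lss) and 0.83 (Sqle and Fdft1). The genes whose profile was most like the mean profile of the 7 were Trim37, Sc5d, Fdps, Cyp51, E130114P18Rik, Mrgbp, Hsp90aa1, Kif1b, Syt11 and Ralgapa2, with r from 0.89 to 0.94 among 7546 genes compared. Sc5d, Fdps and Cyp51 are enzymes of the same pathway. These correlations are descriptions with no test.

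In AP-like cells all 7 genes had lower levels in the cKO than in the WT embryo, in contrast to the cultures. The log2 ratio of cKO to WT was -0.38 (95% interval -0.48 to -0.28) for Idi1, -0.31 (-0.43 to -0.20) for Sqle, -0.18 (-0.25 to -0.12) for Hmgcs1 and -0.17 (-0.31 to -0.03) for Insig1. For Lss, Fdft1 and Srebf2 it was -0.11, -0.07 and -0.05, with intervals that include 0. Idi1 and Sqle passed 1.2-fold, which 5.35% of the 10584 genes with at least 200 UMIs did downward and 6.79% upward. The median log2 ratio of those genes was -0.01, the ratio of the 7 summed genes was -0.19 (-0.23 to -0.15), and Idi1 and Sqle lay at the 2.23 and 3.58 percentiles. Without replicates, a difference of this size between 2 embryos and one between genotypes cannot be told apart.

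Among the AP-like clusters the difference in the 7 summed genes was largest in cluster 10. In cluster 10, led by Cks2, Cenpf and Ube2c (307 WT and 409 cKO cells), the 7 summed genes had 707 CPM in the WT and 549 CPM in the cKO embryo, a log2 ratio of -0.37 (-0.43 to -0.30). In cluster 5, led by Aldoc, Fabp7 and Hes5 (503 and 735 cells), they had 697 and 662 CPM, a log2 ratio of -0.07 (-0.12 to -0.02). Idi1 had 119 and 71.4 CPM in cluster 10 (log2 ratio -0.73, -0.89 to -0.57) against 108 and 98.7 CPM in cluster 5 (-0.13, -0.26 to 0.01). Hmgcs1 had log2 ratios of -0.41 (-0.51 to -0.31) and -0.06 (-0.14 to 0.03). Sqle was lower in both, at -0.37 and -0.29. Cell cycle genes also differed between the embryos within cluster 10, with a log2 ratio of -0.27 for Ccnb1 and 0.32 for Mcm2, and in cluster 5 Top2a had 0.72. Their part was not tested. In the AP-like cluster 13, with few UMIs per cell, the summed log2 ratio was -0.23 (-0.44 to -0.03). Without cluster 13 the ratio over AP-like cells was -0.19, an alternative chosen after seeing the data. Cluster 13 also held cycling transcripts, with Top2a at 481 CPM in the WT and 499 CPM in the cKO embryo. Top2a was at 719 and 814 CPM in cluster 10 and at 47.2 and 77.6 CPM in cluster 5.

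The other classes gave mixed differences. In Cajal-Retzius-like cells the summed log2 ratio was -0.40 (-0.58 to -0.23), with Hmgcs1 at -0.49 (-0.77 to -0.21) and Idi1 at -1.27 (-1.98 to -0.58), the latter on 49 and 29 UMIs. In immature neuron-like cells all 7 genes were again lower in the cKO embryo, with a summed log2 ratio of -0.16 (-0.19 to -0.13). Hmgcs1 had -0.27 (-0.33 to -0.21) and was the only one of the 7 past 1.2-fold, against 5.59% of 11379 genes downward and 6.17% upward. In IP-like cells the summed ratio was 0.07 (-0.01 to 0.14), and Hmgcs1 was at 0.23 (0.08 to 0.38) while Insig1 was at -0.34 (-0.59 to -0.10). In migrating neuron-like cells it was -0.05 (-0.09 to -0.01), but the 3 clusters of this class differed. Cluster 11, led by Tafa1, Tafa2 and Tfap2d, held 148 WT and 493 cKO cells. Its class name is weak, since only 3 of 6 markers were raised, the fewest allowed. This cluster had a summed log2 ratio of -0.40 (-0.51 to -0.29), with Hmgcs1 at -0.54 and Idi1 at -1.06. The summed ratio was -0.02 in cluster 1 and 0.04 in cluster 2. In GE-like cells, which lie outside the Emx1-Cre domain, it was -0.03 (-0.10 to 0.04), with Srebf2 at 0.25 (0.10 to 0.41) and Idi1 (-0.54 to -0.01) and Insig1 (-0.56 to 0.01) both at -0.27. These last 2 were past 1.2-fold downward there, against 4.44% of 9828 genes downward and 6.26% upward.

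**Figure D4:**
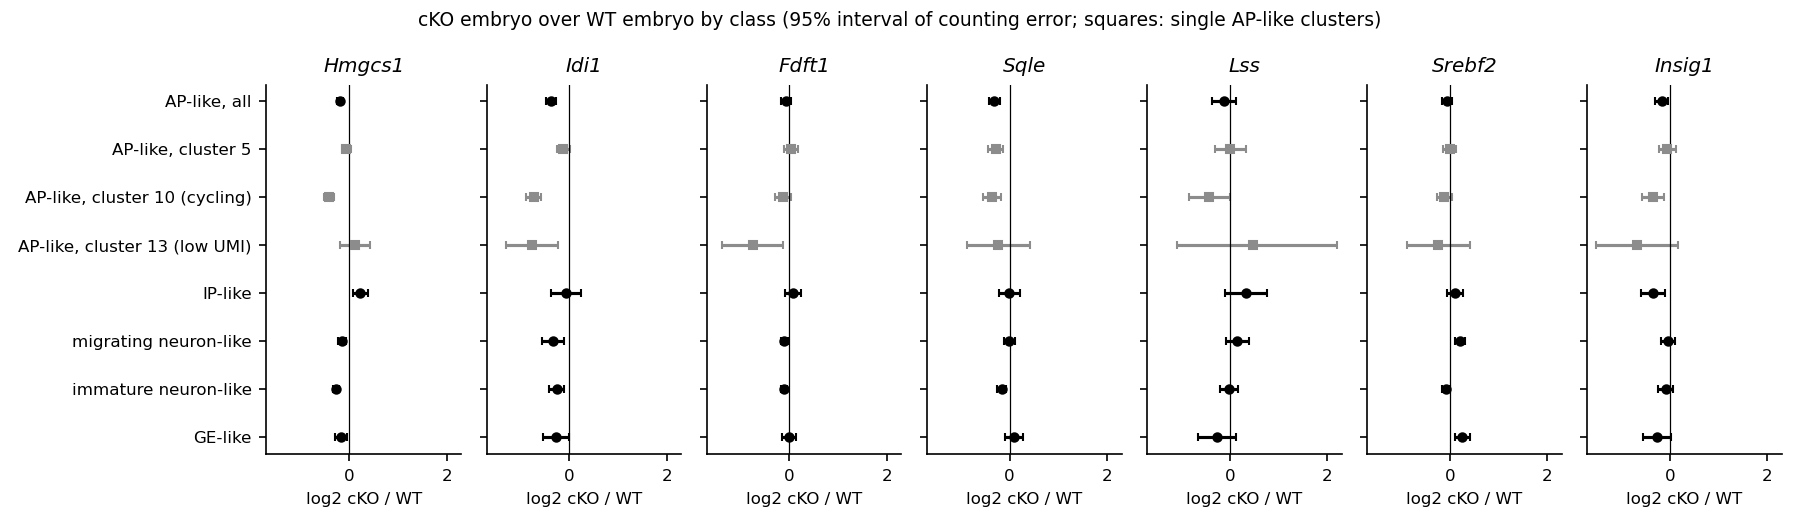
Log2 ratio of the cKO to the WT embryo for each of the 7 genes by class. Circles are classes, grey squares are single AP-like clusters, and bars are 95% intervals of counting error. In AP-like cells all 7 circles lie below 0, Hmgcs1 lies lowest in cycling cluster 10, and Idi1 lies lowest in clusters 10 and 13.

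Of the 20 synthesis enzymes, 5 of them among the 7 genes, 13 had a log2 ratio below 0 and 7 above in AP-like cells, with a median of -0.09. In immature neuron-like cells 18 were below 0 and 2 above, with a median of -0.13. All genes with at least 200 UMIs had a median of -0.01 in each of these classes. In AP-like cells Tm7sf2 was more than 1.2-fold higher at 0.58, and 4 enzymes were more than 1.2-fold lower, among them Idi1, Sqle and Ebp (-0.35). Of all genes with at least 200 UMIs there, 6.79% were at least 1.2-fold higher and 5.35% at least 1.2-fold lower. Apoe, lower in the cKO cultures, was also lower in cKO AP-like cells (-0.67, -0.84 to -0.50), whereas Abcg1 was higher (0.60, 0.16 to 1.05). In immature neuron-like and GE-like cells Apoe was instead at least 1.2-fold higher in the cKO embryo. Abcg1 was at least 1.2-fold higher in IP-like and migrating neuron-like cells too.

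**Figure D5:**
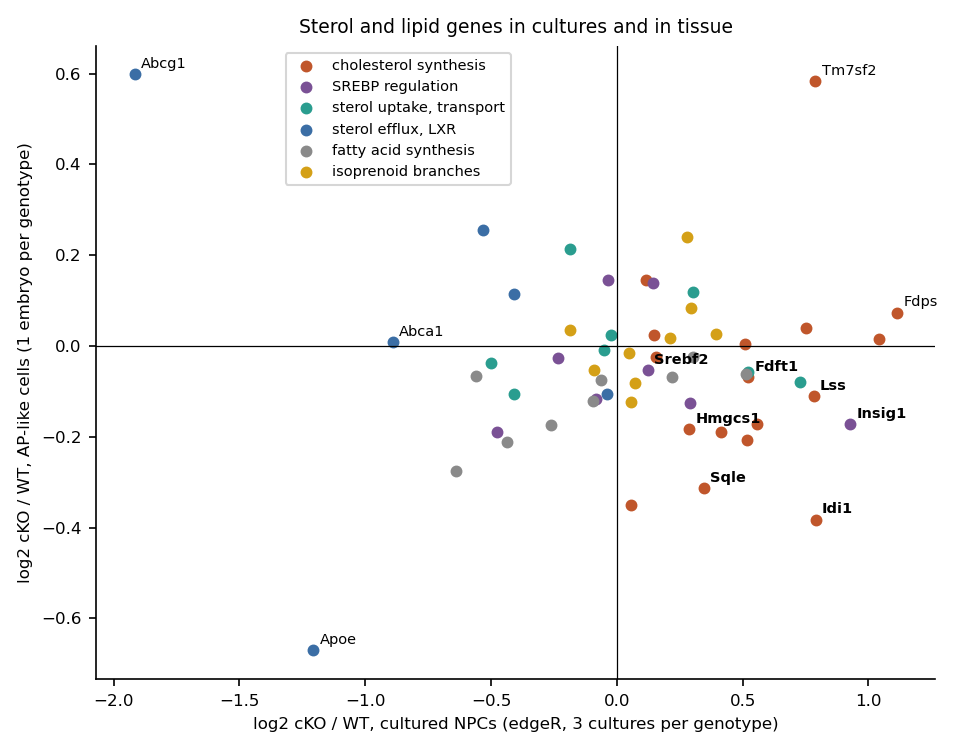
Log2 ratio of cKO to WT in cultured NPCs (x axis, 3 cultures per genotype) against AP-like cells (y axis, 1 embryo per genotype) for genes of 6 sterol and lipid lists with at least 200 UMIs, not all of which are drawn. Colors mark the lists, and the 7 genes followed here are in bold. They all lie to the right of 0 and below 0, while Apoe lies below 0 on both axes.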

How the data were processed

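RNA-seq was made from 3 WT and 3 cKO NPC cultures and scRNA-seq from 1 WT and 1 cKO embryo. The LACE-seq libraries were not analysed here. The RNA-seq file deposited by the authors holds unnormalized counts for each gene, from reads filtered with NGSQC and aligned to mm10 with HISAT2. The counting program, annotation and strand setting were not given in the sources used here. Genes that overlap others are listed with few or no reads (Mvd at 0). For scRNA-seq they deposited UMI counts per gene and barcode from Cell Ranger 7.0.0 (matrix header).

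Counts were tested with edgeR 4.0.16 (filterByExpr, TMM, robust quasi-likelihood fit, Benjamini-Hochberg), checked on simulated counts with known changes, against DESeq2 1.42.0 and limma 3.58.1 as alternatives. RPKM used GENCODE M21 exon lengths. Barcodes under 200 genes or over 10% mitochondrial UMIs were dropped, and the rest clustered in Seurat 5.3.0 at resolution 0.8 without the sterol and lipid genes. Of 26 clusters, 24 were named from marker lists, by limits set after the clusters were seen. Barcodes that Scrublet called doublets (284 WT and 446 cKO among the filtered cells) were kept, and removed as an alternative. The 7 genes, the lists and the markers were chosen with earlier results of these data known. Named genes were the 7, Insig2, Srebf1, Scap and Syncrip, up to 4 called genes of largest change per list, and the 10 genes of most similar profile. Some genes that this rule or a count would name are not reported here. Ebp, the other genes listed by name in a count, and the cell cycle genes of the AP-like clusters were named after their values were seen. Alternatives covered scaling, count filters, test, covariates, single cultures left out, resolution, doublets and depth. Intervals on UMIs cover counting error only.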

Additional observations from a re-analysis of the deposited data

Results flagged for a closer look

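For Sqle, Idi1 and Insig1 every cKO culture lay above every WT culture, while the cKO embryo lay below the WT embryo in AP-like cells. The AP-like log2 ratios were -0.31 for Sqle, -0.38 for Idi1 and -0.17 for Insig1, against 0.35, 0.79 and 0.93 in the cultures. Abcg1 showed the opposite pattern, at 0.60 in AP-like cells and -1.92 in the cultures. The difference between cultures and tissue was not tested, since each genotype has 1 embryo and the readouts differ.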

How the results depend on the processing

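The genes called higher among the 7 numbered 4 to 5 when single cultures were left out, Sqle being lost without cKO culture 1, and 6 with the replicate block. Hmgcs1 was called in 3 alternatives, with edgeR adjusted p of 0.0188 without a count filter, 0.0111 with the replicate number as a block (log2 fold change 0.28) and 0.000425 with the presence of Y-linked counts as a covariate. The shared replicate numbers did not pair the cultures (correlations of deviations 0.33, -0.02 and 0.07 for numbers 1, 2 and 3), and no other call on the 7 genes changed in the fit with the replicate block. The fatty acid genes called higher numbered 4 with that covariate and 1 to 2 with single cultures left out, the isoprenoid genes called higher 1 to 3 with single cultures left out, and the isoprenoid genes called lower 1 under RLE size factors, upper quartile scaling, a filter of at least 5 CPM in 3 libraries and the replicate block. The log2 ratio of the 7 summed genes in AP-like over immature neuron-like cells, 0.63 in WT and 0.60 in cKO, was 0.72 and 0.66 at resolution 1.2 and 0.70 and 0.66 without doublets. The promoter windows with the sterol regulatory element went from 1 to 2 with 1 mismatch allowed. The causes were not tested. No called fold change and no ratio whose interval excluded 0 changed sign under these alternatives. Single-cell ratios whose interval included 0 did in places, the largest shift being Lss in IP-like cells, from 0.33 to -0.37 when thinned to 5000 UMIs per cell. For a single gene, 3 against 3 cultures allow an exact permutation p of 0.1 at the lowest.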
